A study of Mus musculus with 2 samples.

Results

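Coinhibitory receptors and ligands are surface proteins that restrain activated T cells, and 10 of their genes were examined on 2 mouse arrays: Lag3, Vsir, Ctla4, Pdcd1, Havcr2, Cd200, Cd274, Entpd1, Lilrb4a and Nrp1. They were taken by symbol from the array's probe annotation, using each probe set that names 1 gene, and all 10 were measured, by 14 of the 18003 such probe sets and as 10 of 11807 genes. A probe set is a group of short probes that reads 1 transcript. The cells were naive CD4+ T cells of female C57BL/6J mice, taken from spleen and lymph nodes and stimulated for 60 h with plate-bound antibodies to CD3 and CD28. One culture had no cytokine added (untreated) and the other received 25 ng/ml of recombinant murine IL-27 (IL-27-treated). Strain and stimulus were the same in both. The sources used here do not give the age or number of the mice, or whether animals were pooled.

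Coinhibitory receptors appear or increase after activation through the T cell receptor and recruit phosphatases or compete for ligands, so that signalling through CD3 and CD28 is damped. CTLA-4 competes with CD28 for B7 ligands, PD-1 answers to PD-L1 and PD-L2, and LAG-3 binds MHC class II. IL-27, a relative of IL-12 that signals in part through STAT factors, is known from other work to raise several of these receptors in T cells, together with the transcription factors Blimp-1 and c-Maf. The comparison asked which genes stood higher or lower after culture with IL-27.

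There was 1 array per group, so no test was possible, no error between cultures is known, and the cytokine, the culture and the hybridization cannot be told apart. The arrays are called here, by their labels, the untreated array and the IL-27 array, and directions follow those labels, which were not tested. Values are RMA intensities on a linear scale, and every difference is the log2 intensity on the IL-27 array minus that on the untreated array. A background floor was set at an intensity of 26.98, the 95th percentile of 35 genes of other tissues. A gene below it on the dimmer array has only a lower bound on its fold, the brighter intensity over the floor. The 6746 genes above the floor on at least 1 array had a median difference of 0.02, and their middle 50% lay between -0.20 and 0.22. Differences given by several probe sets of 1 gene had a pooled SD of 0.21 over 2184 genes, a measure of probe-level error only. All 6 measured CD4+ T cell markers were above the floor on both arrays, from 343 to 4612 in intensity, and 0 of them were 2-fold apart. Of 5 measured B cell markers 0 were above it.

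The promoters of Vsir, Nrp1 and Cd200 are shown because Vsir and Nrp1 lay past 2-fold in opposite directions and Cd200 had the next largest difference among the genes with a promoter entry and a level above the floor on both arrays. Each is the RefSeq window of 300 bases, from 250 before to 50 after the start site, in build GRCm38.p6, 5′ to 3′ along the gene's strand. Capitals mark GNGAAAG on either strand, a core of the Blimp-1 motif.
Vsir, chr10:60346601-60346900, + strand: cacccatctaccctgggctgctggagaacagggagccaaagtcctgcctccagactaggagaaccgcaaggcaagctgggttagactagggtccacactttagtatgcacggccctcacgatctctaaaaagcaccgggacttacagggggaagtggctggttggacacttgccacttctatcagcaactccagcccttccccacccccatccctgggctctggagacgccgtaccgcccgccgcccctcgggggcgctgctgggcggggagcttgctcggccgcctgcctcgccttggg
Nrp1, chr8:128358823-128359122, + strand: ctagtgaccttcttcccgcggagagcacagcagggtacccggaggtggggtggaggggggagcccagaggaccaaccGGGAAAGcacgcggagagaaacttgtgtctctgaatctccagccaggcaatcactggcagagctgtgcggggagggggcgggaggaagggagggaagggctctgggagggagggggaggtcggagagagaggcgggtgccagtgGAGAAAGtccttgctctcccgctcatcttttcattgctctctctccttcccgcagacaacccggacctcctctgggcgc
Cd200, chr16:45409004-45409303, - strand: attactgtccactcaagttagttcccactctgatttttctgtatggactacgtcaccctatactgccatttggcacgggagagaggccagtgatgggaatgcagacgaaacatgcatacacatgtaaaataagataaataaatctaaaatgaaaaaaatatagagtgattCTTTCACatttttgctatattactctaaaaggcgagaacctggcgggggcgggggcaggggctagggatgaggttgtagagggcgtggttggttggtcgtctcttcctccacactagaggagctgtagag

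Windows were matched for 8 of the 10 genes, 9 windows in all, without Lag3 and Lilrb4a. GNGAAAG stood in 3 of the 9, those of Nrp1, Cd200 and Ctla4, and in 22.6% of all 32851 windows. In the Nrp1 window it occurred at 173 and 29 bases before the start site, and in the Cd200 window at 80 bases before it. TTCNNNGAA, the STAT type, was in 0 of the 9 windows and in 8.3% of all windows. The interferon response type, searched as TTTC, any 2 bases and TTTC, was in 0 of the 9 and in 3.44% of all. TGANTCA, the AP-1 type, was in 1 of the 9, that of Havcr2, and in 7.81% of all. Each motif was searched on both strands, and these 4 types can overlap one another. A match of letters describes the sequence and does not show a binding site.

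Of the 10 genes, Lag3, Vsir and Lilrb4a were 2-fold or more lower and Nrp1 2-fold or more higher on the IL-27 array, while Ctla4, Pdcd1, Cd274 and Cd200 were within 2-fold. Entpd1 was above the floor on the untreated array alone, with a lower bound that does not reach 2-fold, so its place is not known. Havcr2 was below the floor on both arrays. Counted over the 9 genes above the floor on at least 1 array, 4 were 2-fold apart, 3 lower and 1 higher, where 4.27% of all genes so filtered were, 2.74% lower and 1.53% higher. The genes were chosen with results of these data known, so the share describes them and tests nothing. Lilrb4a, Nrp1 and Entpd1 passed the filter through 1 array alone. Of the other 6, above the floor on both arrays, 2 were 2-fold apart, against 3.17% of all such genes. The median difference was -0.12 over the 9 genes and -0.03 over all 10. By probe set, 3 higher and 4 lower were past 2-fold among the 12 above the floor, against 3.92% of all probe sets in either direction. All 3 higher ones were of Nrp1 and 2 of the lower ones were of Vsir, so this count repeats genes. The probe sets of Nrp1 and Lilrb4a passed the filter through 1 array alone.

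**Figure D1:**
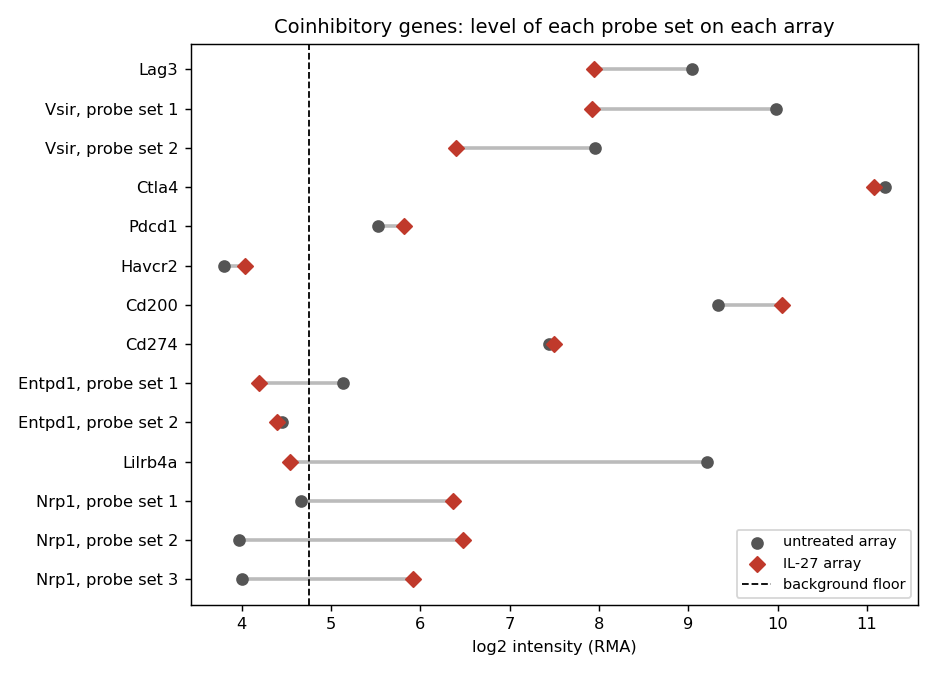
Level of each of the 14 probe sets of the 10 coinhibitory genes, as log2 RMA intensity, on the untreated array (grey circles) and the IL-27 array (red diamonds), with the background floor dashed. Vsir and Lag3 are lower but still above the floor on the IL-27 array, Lilrb4a is far above the floor on the untreated array and below it on the IL-27 array, and all 3 probe sets of Nrp1 cross it in the opposite direction.

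Lag3 encodes an inhibitory receptor that resembles CD4 and binds MHC class II. Its only probe set had an intensity of 525 on the untreated array and 246 on the IL-27 array. It was thus 2.13-fold lower on the latter, a log2 difference of -1.09, and well above the floor on both. Of the 6444 genes above the floor on both arrays, 109 (1.69%) had a lower difference than Lag3. In bulk RNA, fewer cells that express a gene and less of its RNA in each cell cannot be told apart.

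Known ligands of LAG-3 were read in the same cultures. Lgals3, which encodes galectin-3, had intensities of 679 and 80.5, an 8.45-fold lower value on the IL-27 array. H2-Ab1, the beta chain of a class II molecule, had 312.5 and 81.6, a difference of -1.94. Both genes therefore lay on the same side as Lag3, though H2-Ab1 encodes only the beta chain of a class II ligand. Cd74, the invariant chain that chaperones class II, lay on the other side, at 58.4 and 172. Fgl1, a secreted ligand, and H2-Aa, the alpha chain, lay under the floor on both arrays. Among the 7 measured dendritic cell markers only Cd74 and H2-Ab1 were above the floor, and Itgax, Flt3, Zbtb46 and Xcr1 were below it on both. The summed intensity of that list was 435 and 316, most of it from H2-Ab1 and Cd74 themselves. The sum is therefore no separate reading of dendritic cells, and their part in the class II values was not tested.

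Vsir encodes VISTA, an inhibitory B7-family molecule that acts both as a receptor on T cells and as a ligand. Its brighter probe set had intensities of 1009 and 242, so the gene was 4.17-fold lower on the IL-27 array. The other probe set had 248 and 84.1, which is 2.96-fold lower. The differences of -2.06 and -1.56 had the same direction, were 0.49 apart, and both exceeded 2-fold, with all 4 values above the floor. Of genes above the floor on both arrays, 23 (0.357%) had a lower difference than the brighter probe set of Vsir, whose promoter held none of the 4 motifs.

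Lilrb4a encodes an inhibitory immunoglobulin-like receptor, best known on myeloid and mast cells, with motifs in its tail that recruit phosphatases. Its only probe set read 591 on the untreated array and 23.3, below the floor, on the IL-27 array. The gene was at least 21.9-fold lower there. The probe set is of the kind, marked _s_at, that can match transcripts of more than 1 gene, and the RefSeq table places Lilr4b, a relative that shares the alias gp49, next to Lilrb4a. Lilr4b was not analysed here, so the value may hold signal from both genes.

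Markers of the cells in which Lilrb4a is best known were low on both arrays. In the macrophage and monocyte list 1 of 7 was above the floor, Cd68, with intensities of 54.9 and 27.5, and the list's summed intensity was 143 and 114. Csf1r, Adgre1, Lyz2, Cd14, Fcgr1 and Itgam were below the floor on both. In the granulocyte and mast cell list 0 of 7 were above it, with sums of 83.3 and 86.7. In the NK cell list 3 of 6 genes were above the floor, Nkg7, Klrd1 and Klrk1, all lower on the IL-27 array as Lilrb4a was. The summed intensity was 2938 and 951, most of it from Nkg7 alone, at 2722 and 884. The defining NK genes Ncr1 and Klrb1c were below the floor on both. Activated T cells can also express Nkg7, Klrd1 and Klrk1, and the part of NK cells in these differences was not tested.

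Entpd1 encodes CD39, an ectoenzyme that breaks down extracellular ATP and, with CD73, supplies adenosine. Its brighter probe set had intensities of 35.1 and 18.3, above the floor only on the untreated array, and was at least 1.30-fold lower on the other. Its second probe set lay under the floor on both, at 21.9 and 21.0. The measured differences of the 2 probe sets, -0.94 and -0.06, were 0.88 apart. Nt5e, which encodes CD73, was likewise below the floor on both arrays, so neither enzyme of the pair gave a value that both arrays measured.

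Nrp1 encodes neuropilin-1, a co-receptor for semaphorins and vascular growth factors that is also known on regulatory T cells. It was the only one of the 10 genes at least 2-fold higher on the IL-27 array, and it was measured there by 3 probe sets. Their intensities were 25.2 and 82.4, 15.7 and 89.3, and 16.05 and 60.2, each pair in the order untreated and IL-27-treated. All 3 lay under the floor on the untreated array and over it on the other, which gave lower bounds of 3.06-fold, 3.31-fold and 2.23-fold. The 3 measured differences ran from 1.71 to 2.51.

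Of the ligands of Nrp1, Sema4a had intensities of 142 and 98.6, a difference of -0.52, and Sema3a was below the floor on both arrays. Foxp3, the defining factor of regulatory T cells, was also below it on both, at 16.2 and 24.3, as was Ikzf2, at 10.8 and 11.6. In the stromal and endothelial list, whose cells also express Nrp1, 0 of 5 genes were above the floor, and the summed intensity was 58.8 and 56.1.

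**Figure D2:**
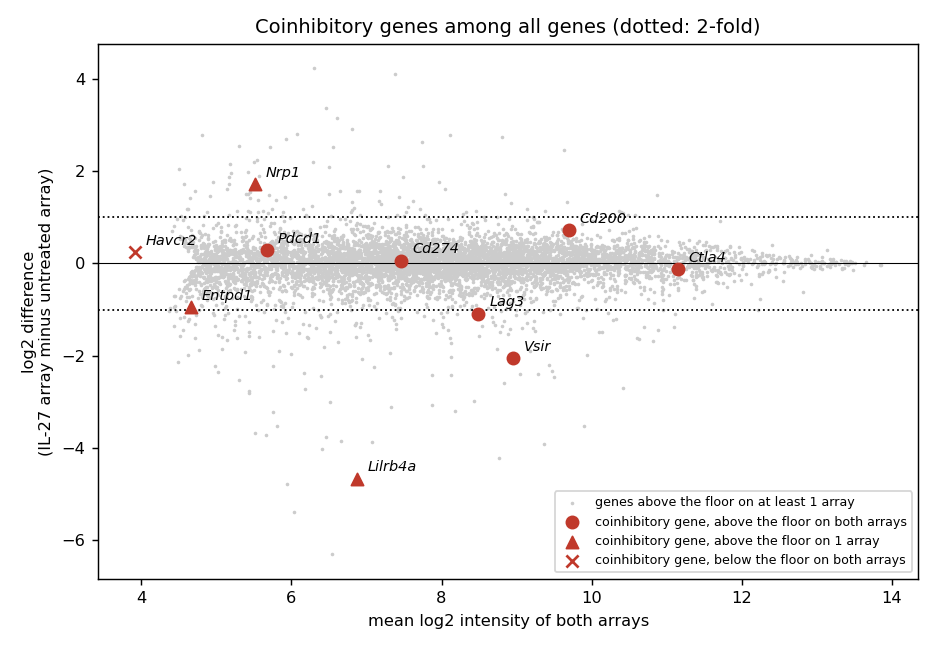
Log2 difference (IL-27 array minus untreated array) against mean log2 intensity for the genes above the floor on at least 1 array (grey) and the 10 coinhibitory genes (red, by how many arrays lay above the floor), with dotted lines at 2-fold. Lilrb4a, Vsir and Lag3 lie below the lower line and Nrp1 above the upper line, and Ctla4, Cd274 and Pdcd1 lie within the bulk of genes.

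Ctla4, the receptor that competes with CD28, had intensities of 2361 and 2168. Its difference of -0.12 was smaller than the pooled SD between probe sets, and 67.4% of genes above the floor on both arrays differed by more. Cd28 had intensities of 1578 and 1232 by its brighter probe set, and its 2 probe sets gave differences of -0.36 and -0.37. Both receptors were within 2-fold, and one of the ligands they share was not. Cd80 had intensities of 43.8 and 187, a 4.27-fold higher value on the IL-27 array. A second probe set of Cd80 gave a 2.78-fold higher value, another was above the floor only on the IL-27 array and at least 1.16-fold higher there, and the last was below the floor on both. Cd86, the other B7 ligand, was below the floor on both arrays.

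Pdcd1, which encodes PD-1, was dim, with intensities of 46.2 and 56.4 and a difference of 0.29. Cd274, which encodes its ligand PD-L1, had 173 and 181, a difference of 0.06. Of genes above the floor on both arrays, 35.6% differed by more than Pdcd1 and 83.8% by more than Cd274, so Cd274 lay closer between the arrays than most genes. Pdcd1lg2, which encodes PD-L2, had 93.0 and 142, a difference of 0.61. These 3 genes of the PD-1 axis were within 2-fold, each by 1 probe set.

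Havcr2, which encodes TIM-3, a receptor found on terminally differentiated T cells, had intensities of 13.9 and 16.4. Both lay below the floor, so no fold is given. Lgals9, which encodes its ligand galectin-9, was bright on both arrays, at 604 and 1009, with a difference of 0.74. A ligand of TIM-3 was therefore read well above background in cultures whose receptor was not.

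Cd200 encodes a ligand that T cells present to the receptor CD200R on other cells. Its intensities were 646 and 1061, so it was 1.64-fold higher on the IL-27 array, a difference of 0.72. It was short of 2-fold, and 6.73% of genes above the floor on both arrays differed by more. Cd200r1, which encodes the receptor, was below the floor on both arrays.

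**Figure D3:**
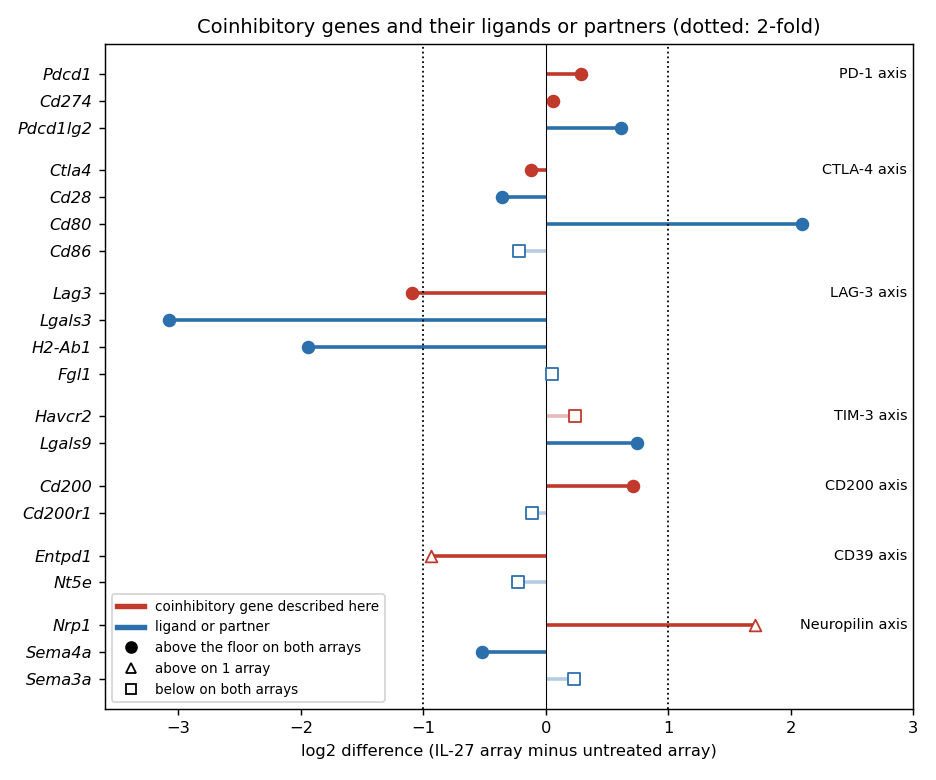
Log2 difference (IL-27 array minus untreated array) of 8 of the coinhibitory genes (red) and their ligands or partners (blue), by axis; filled circles are above the floor on both arrays, open triangles on 1 array and open squares on neither. Lag3 lies at -1.09 beside Lgals3 at -3.08, and Ctla4 at -0.12 beside Cd80 at 2.10.

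Other genes of coinhibition were read from a list of 36, of which 30 were measured and 12 were above the floor, all 12 on both arrays. Cd80 and Cd96 were at least 2-fold higher on the IL-27 array and Lgals3 at least 2-fold lower, and the other 9 were within 2-fold, so 3 of 12 were apart where 3.17% of all genes above the floor on both arrays were. The median over the 12 was 0.08, beside 0.02 over all genes above the floor, and it was -0.04 when genes below the floor were kept. Cd96, a receptor of the nectin family, had intensities of 51.3 and 105, a difference of 1.04, near the 2-fold limit. Pvr, which encodes a ligand it shares with TIGIT, differed by -0.11 by its brightest probe set. Cd5, a damper of T cell receptor signalling, had 2650 and 1639, a difference of -0.69. The 18 genes below the floor on both arrays included Cd160, Lair1, Klrg1 and Cd244a.

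Phosphatases that inhibitory receptors recruit were all above the floor. Ptpn6, which encodes SHP-1, had intensities of 2029 and 1358, a difference of -0.58. Ptpn11, which encodes SHP-2, had 612 and 741, a difference of 0.27, and Inpp5d, which encodes SHIP1, had 281 and 256, a difference of -0.13. None of the 3 was 2-fold apart.

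Costimulatory receptors, the counterpart of the coinhibitory genes, were read from a list of 15, of which 13 were measured. Of the 9 above the floor, all on both arrays, 0 were 2-fold apart, where 3.17% of all such genes were, so the count does not set them apart from other genes. Their median difference was -0.17. Tnfrsf9, which encodes 4-1BB, had intensities of 1667 and 976, a difference of -0.77 by its brightest probe set and -0.92 by the second. Slamf1 differed by -0.72, and its other probe sets by -0.67 and -0.45. Slamf6 differed in the other direction, by 0.69, with intensities of 151 and 245. Icos had 1635 and 1469, a difference of -0.15, and Tnfrsf18, which encodes GITR, differed by -0.20.

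Genes known to regulate or accompany the coinhibitory programme were taken from a list of 21, of which 18 were measured, 13 of them above the floor. By measured values Prdm1, Nfil3, Il10 and Ahr were lower by 2-fold or more on the IL-27 array, and Eomes was higher; 3 were lower once values under the floor were set to it. These are 5 of 13, where 4.27% of all genes above the floor on at least 1 array were so far apart, but Prdm1, Il10 and Ahr passed the filter through the untreated array alone. Of the 9 above the floor on both arrays, 2 were apart, against 3.17% of all such genes. The median was -0.30 over the 13 and -0.23 over the 9. Klrc1, an NK receptor chain, was above the floor on the untreated array alone, with lower bounds of 1.39-fold and 1.18-fold from its 2 probe sets. Prdm1, which encodes Blimp-1, had intensities of 190 and 16.5, the second of them under the floor, and was at least 7.04-fold lower there. Nfil3, an activator of Havcr2 and Il10 in T cells, had 1433 and 272, which is 5.28-fold lower. Il10 had 47.2 on the untreated array and was below the floor on the other, so it was at least 1.75-fold lower. Ahr was at least 2.67-fold lower by 1 of its 2 probe sets, from 72.1 to a value below the floor, and its other probe set was under the floor throughout.

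Eomes, a T-box factor of cytotoxic and exhausted T cells, had intensities of 32.8 and 290 and was 8.85-fold higher on the IL-27 array. Its untreated value was close to the floor of 26.98. The second probe set of Eomes, below the floor on the untreated array at 13.8, was at least 8.90-fold higher. Tbx21, which encodes T-bet, differed by -0.23, Batf by -0.30 and Stat3 by -0.40. Prdm1, Il10 and Lag3, which IL-27 is known from other work to raise, were all lower on the IL-27 array. Whether the labels of the 2 arrays were exchanged was not tested, and an exchange would turn every direction given here. Pdpn and Procr, surface genes of the programme that IL-27 is known to induce, were below the floor on both arrays. Maf was not analysed here.

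**Figure D4:**
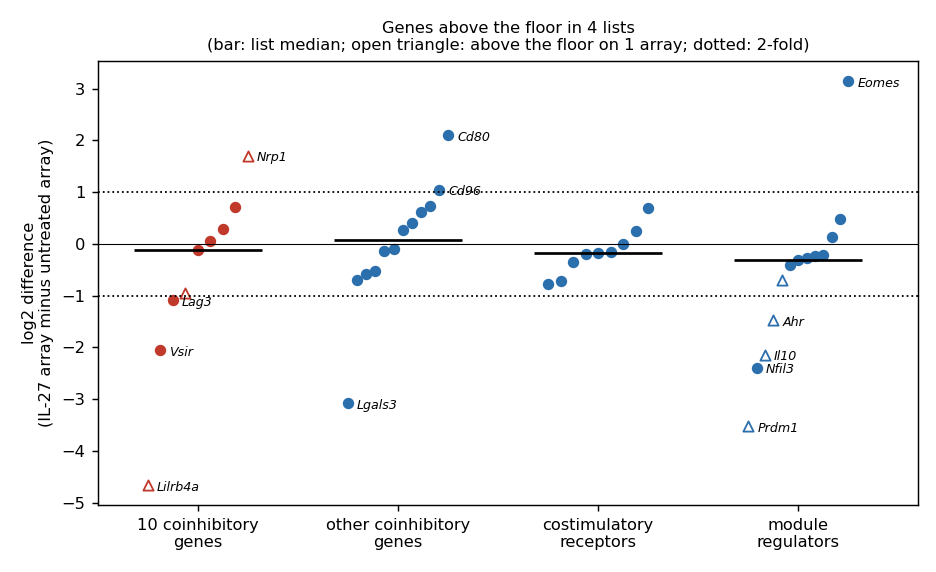
Log2 difference (IL-27 array minus untreated array) of the genes above the floor among the 10 coinhibitory genes, other coinhibitory genes, costimulatory receptors and regulators; bars are list medians, open triangles are genes above the floor on 1 array, and dotted lines mark 2-fold. Outside the dotted lines lie 4 of the 9 coinhibitory genes and 5 of the 13 regulators by measured values, or 2 of 6 and 2 of 9 among those above the floor on both arrays, and 0 of the 9 costimulatory receptors, beside 4.27% of all genes above the floor on at least 1 array and 3.17% of those above it on both.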

How the data were processed

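The authors deposited 1 intensity per probe set and array, 22716 probe sets on each of 2 arrays, on a linear, not logarithmic, scale. RMA, named in the submitters' processing notes, corrects background, equalizes the arrays' distributions by quantiles and combines the probes of a set. No version, setting or genome build is given in the sources used here. Quantile normalization makes the 2 distributions alike (median intensities 33.3 and 32.4), so a change in total RNA cannot be seen. In RMA values, differences between dim genes are also compressed. The number of arrays limits the precision. Per the labels' protocols, 100 ng of total RNA was amplified with a 3' in vitro transcription kit.

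Probe sets were named from the platform annotation: 18003 had 1 symbol, 287 several and 4426 none listed. The Entrez identifiers of all 10 genes carried the same symbols in the RefSeq table of GRCm38.p6, which was used for names and neighbours. Log2 was taken without a pseudocount, and the probe set of highest mean log2 value stood for its gene. The floor came from 35 measured genes of 40 listed for other tissues. Tg, one of them, had intensities of 2199 and 2341, so a floor of 21.5 without it was tried after seeing the data.

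The genes, lists, floor and thresholds were chosen with earlier results of these data known. The rule for naming took all 10 genes, up to 4 genes with the largest absolute difference from each of 3 lists, and Cd28, Lilr4b, Pdcd1lg2, Cd80, Prdm1 and Maf. Other ligands, phosphatases, receptors, regulators and markers were named after their values were seen. The calling procedure was tested on simulated arrays, with effects past 2-fold placed in bright genes only. That test does not cover values near the floor, folds near the limit or error between cultures. Python 3.11.15 with pandas 2.3.3 and statsmodels 0.14.6 was used.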

Additional observations from a re-analysis of the deposited data

How the results depend on the processing

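No paired analysis was possible because each group has 1 array, and no array could be left out. Alternatives changed the floor, the handling of dim values, the normalization, which probe set stands for a gene, the fold and the pseudocount. The 9 coinhibitory genes above the floor kept their sign under every alternative that gave them a value. For a gene with 1 probe set, only the changes of normalization could have turned a sign, and the array medians differed by only -0.04 in log2. The kept signs therefore do not settle the direction of Ctla4 and Cd274, whose differences were smaller than the pooled SD of 0.21. Of these genes, 4 were counted apart under each alternative, or 6 at 1.5-fold by measured values. The 6 include Entpd1, whose lower bound of 1.30-fold does not reach 1.5-fold. Among all genes, 73 were 2-fold higher and 137 lower of 6746 with 16 added before log2. With the floor doubled, 92 were higher and 163 lower of 5954, and with the loess curve removed 99 and 194 of 6746. The 2-fold calls rest on the size of a difference alone. Adding 16 before log2 gave -3.95 for Lilrb4a, 1.26 for Nrp1 and -0.58 for Entpd1, and raising dim values to the floor gave -0.38 for Entpd1; both shrink differences of dim values by construction. The mean of probe sets above the floor gave 2.04 for Nrp1 and -1.81 for Vsir. At 1.5-fold, 6 genes of the coinhibitory list and 3 costimulatory receptors were apart. The share of all genes past 1.5-fold was not counted. The counts at 1.5-fold therefore cannot be set against the shares given for 2-fold. With the floor of 21.5, Lilrb4a and the brightest probe set of Nrp1 were above it on both arrays, at 25.3-fold and 3.27-fold. Some markers called below the main floor also pass this one. Csf1r, at 26.2 and 24.4, passes it on both arrays. Foxp3, at 16.2 and 24.3, passes it on the IL-27 array alone, as do Cd79b, at 20.2 and 25.6, and Elane, at 21.4 and 24.2. The marker counts were not repeated with this floor. Lag3, at -1.13 to -1.04, stayed near the 2-fold limit. With no detection calls, signal over background limits Havcr2, Entpd1 and Pdcd1.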

Other observations

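Tg, the thyroglobulin gene, was listed as a gene of another tissue, yet its intensities were 2199 on the untreated array and 2341 on the IL-27 array. Of the 35 genes of other tissues, 3 exceeded the floor on at least 1 array. Cd8b1 had intensities of 119 and 176, while Cd8a was below the floor on both arrays, at 17.2 and 19.5.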
